A study of Homo sapiens with 6 samples.

Results

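The genes described here encode 10 secreted matricellular proteins or their close relatives: tenascin C (TNC), thrombospondins 1, 2 and 3 (THBS1, THBS2, THBS3), SPARC, osteopontin (SPP1), periostin (POSTN) and the cysteine-rich proteins CCN1, CCN2 and CCN3. They were found through the platform annotation, as the probe sets (groups of array probes designed to read 1 transcript) with 1 of these symbols as their only gene symbol. This gave 25 probe sets for the 10 genes, of 19775 genes with such a probe set on the array. RNA was measured on 6 arrays of MDA-MB-231, a breast carcinoma line with basal and mesenchymal traits. A lentivirus had brought GATA3 and enhanced green fluorescent protein into the cells of the first group (the arrays labelled GATA3, n = 3), and the fluorescent protein without GATA3 into those of the second (the GFP control arrays, n = 3), and cells of either group were sorted for that protein. GATA3 is a transcription factor of luminal mammary cells. All cells were grown in medium with 10% serum and harvested 2 days after seeding. The labels name no clones and do not say whether the 3 arrays of a group came from separate cultures or sorts, so the p-values describe array-to-array spread that may be technical.

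Matricellular proteins lie in the extracellular matrix but act mainly on cells, by binding integrins, proteoglycans and growth factors, and are not load-bearing fibres. Tenascin C loosens the hold of cells on fibronectin and is known from the invasive front and metastatic niches of breast carcinoma. Thrombospondin 1 binds CD47 and CD36 and can release active TGF-beta from its latent complex. CCN1 and CCN2 bind integrins, and their genes are textbook targets of the YAP and TEAD transcription factors and of serum response factor.

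The 5 members with a measurable signal did not move together. TNC was 7.67-fold lower in the arrays labelled GATA3. CCN3, CCN2 and CCN1 were higher, by 2.95-fold, 1.33-fold and 1.24-fold on the probe set used for each gene. CCN1 did not pass on its other probe set. THBS1 was higher on 6 of its 7 probe sets and did not pass on the brightest. THBS2, THBS3, SPARC, SPP1 and POSTN stayed under the detection level on every array of either group.

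To show the DNA in front of genes that fell, rose or stayed dim, the 250 bases before the start of 4 members are printed here, 5′ to 3′ on the strand of the gene, from RefSeq (GRCh38.p14). RefSeq promoter entries were matched for 8 of the 10 members (not CCN1 and CCN3), with 2 entries for THBS3 and 9 in all. The windows were searched on both strands for GGAATG (the core letters bound by TEAD factors), GATAA (GATA factors) and TGANTCA (AP-1), which do not overlap each other in these windows, and matches stand in capitals. CCN2 lies on the minus strand at chr6:131951373-131951622, THBS1 on the plus strand at chr15:39580829-39581078, THBS2 on the minus strand at chr6:169253847-169254096 and TNC on the minus strand at chr9:115118158-115118407.
CCN2: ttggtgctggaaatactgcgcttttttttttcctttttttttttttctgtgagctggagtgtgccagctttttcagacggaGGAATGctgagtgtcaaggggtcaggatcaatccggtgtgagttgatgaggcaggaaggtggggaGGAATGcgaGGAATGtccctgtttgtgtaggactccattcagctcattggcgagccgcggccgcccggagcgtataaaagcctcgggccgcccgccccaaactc
THBS1: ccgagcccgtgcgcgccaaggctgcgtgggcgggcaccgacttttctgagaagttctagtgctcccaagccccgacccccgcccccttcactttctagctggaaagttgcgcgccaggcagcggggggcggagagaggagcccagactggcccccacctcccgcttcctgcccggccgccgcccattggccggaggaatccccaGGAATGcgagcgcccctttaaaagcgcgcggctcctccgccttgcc
THBS2: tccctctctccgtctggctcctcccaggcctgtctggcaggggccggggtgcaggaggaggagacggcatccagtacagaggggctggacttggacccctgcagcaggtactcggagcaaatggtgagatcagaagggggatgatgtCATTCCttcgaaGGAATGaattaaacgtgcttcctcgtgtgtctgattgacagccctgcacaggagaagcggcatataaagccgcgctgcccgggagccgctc
TNC: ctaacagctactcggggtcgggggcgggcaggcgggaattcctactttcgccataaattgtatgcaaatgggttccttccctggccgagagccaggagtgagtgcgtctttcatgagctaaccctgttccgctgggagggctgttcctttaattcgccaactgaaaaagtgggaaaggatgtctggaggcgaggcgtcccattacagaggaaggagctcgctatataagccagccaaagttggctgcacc

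The CCN2 window held the TEAD motif 3 times, beginning 169, 104 and 95 bases before the gene's start. THBS1, higher on 6 of 7 probe sets and not passed on the brightest, held it 1 time, from base 46 before the start. THBS2 held it 2 times, on opposite strands, although no array read this gene above the detection level, and SPARC, dim as well, held it 1 time. TNC held none of the 3 motifs. Of 35116 such windows over all RefSeq genes, 11.9% held the TEAD motif, 20.4% the GATA motif and 6.57% the AP-1 motif. The GATA motif was in none of the 9 windows of the 8 members, and the AP-1 motif was in that of POSTN alone. A match is a run of letters and does not show that a factor binds there.

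Expression is given as deposited GCRMA values on what was taken to be the log2 scale. GCRMA, an Affymetrix method that subtracts a background estimated from probe sequence, leaves dim probe sets at a common floor, here 2.16. A value of 4 was taken as the detection level, and probe sets over 4 on at least 3 of the 6 arrays were tested. The threshold was an adjusted p of 0.05 from limma over all 23785 tested probe sets. Array medians were 2.70 to 2.78, and arrays correlated at 0.984 to 0.997 within groups and 0.940 to 0.959 between groups. GATA3 replicate 3 stood somewhat apart, with the lowest correlations to its group (0.984 and 0.986), and it alone belongs to the second set of raw files, so each member's value without it is given below. The 3′ to 5′ log2 ratio of the GAPDH control probe sets was -0.026 to -0.00050 in the arrays labelled GATA3 and -0.073 to -0.032 in the GFP control arrays, without overlap. That of ACTB overlapped between the groups. The part of these ratios in the results below was not tested.

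The introduced gene went against the label. The GATA3 probe set 209604_s_at read 7.93, 7.94 and 7.32 in the arrays labelled GATA3, against 9.37, 9.35 and 9.45 in the GFP control arrays, a log2 change of -1.66 (SE 0.18, adjusted p = 0.00238). Probe set 209602_s_at read 3.41, 3.28 and 3.04 in the arrays labelled GATA3, against 4.73, 4.38 and 5.07 in the GFP control arrays. It was tested only through the GFP control arrays, so it had to read lower and is no separate support. The third, 209603_at, read 2.16 to 2.54 and was not tested. Whether the GATA3 probes read the introduced sequence is not given in the sources used here. Every direction below therefore rests on the labels. All 11 measured markers of the cell line, VIM and CD44 among them, lay over 4 on all 6 arrays. The 4 leukocyte and 5 endothelial markers with a probe set were under 4 on every array. Of 9 fibroblast markers 6 were under 4 throughout, COL1A2, COL3A1 and DCN among them. The summed unlogged value of that list was 2200 to 2234 in the arrays labelled GATA3 and 215 to 225 in the GFP control arrays. In the arrays labelled GATA3 most of this sum came from the proteoglycan gene LUM. LUM read 10.95, 10.98 and 10.96 in the arrays labelled GATA3, against 3.22, 3.03 and 3.50 in the GFP control arrays. PDGFRB and COL1A1 did not pass on the probe set used, although another COL1A1 probe set, 1556499_s_at, read 6.94 ± 0.37 in the arrays labelled GATA3 and 4.07 ± 0.35 in the GFP control arrays (SD, n = 3 each). The part of other cells in the members' changes was not tested.

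Of the 25 member probe sets, 13 passed the filter and 12 lay under 4 on all arrays. Among the 13, 10 were higher in the arrays labelled GATA3, 1 was lower and 2 did not pass, where the same threshold called 11.3% of all tested probe sets higher and 14.0% lower. Since 7 of the 13 read THBS1, these are not 13 separate observations. With 1 probe set per gene (the tested one with the highest mean), 3 members were higher, 1 was lower and 1 did not pass, against 14.8% of 10814 genes higher and 14.5% lower. The 3 include CCN1, whose other probe set, almost as bright, did not pass. The median log2 change of the 5 measured members was 0.31, beside -0.02 over all genes. The groups did not overlap in 12 of the 13 probe sets, and in 46.0% of all tested probe sets. The 12, and the 10 called higher, include CCN3 204501_at. It passed the filter only through the arrays labelled GATA3, so its groups could not overlap and it is no separate support. With 5 measured genes, no more than these counts can be read from the family as a whole.

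**Figure D1:**
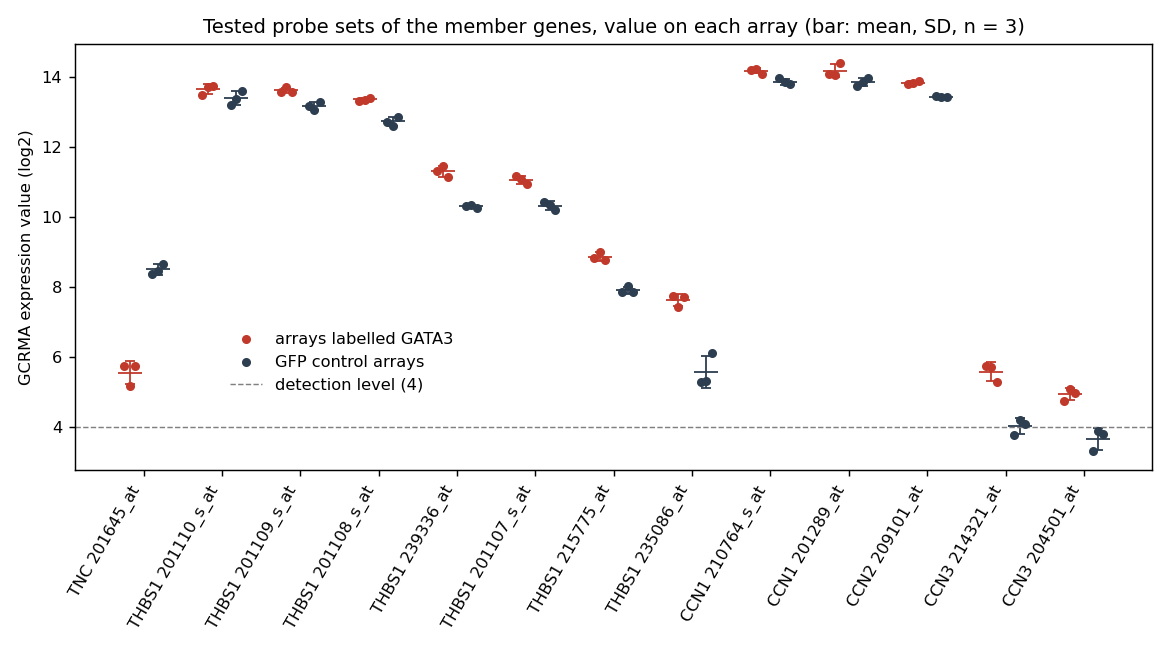
GCRMA expression values (log2, vertical axis) of the 13 tested member probe sets, with 1 point per array, arrays labelled GATA3 in red on the left of each pair and GFP control arrays in dark blue on the right; bars are the mean and SD of 3 arrays and the dashed line is the detection level of 4. TNC lies lower in the red points, and only THBS1 201110_s_at has overlapping groups.

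Among the adhesion-modulating glycoproteins, TNC had the largest change with 1 probe set per gene. Its probe set 201645_at read 5.76, 5.17 and 5.76 in the arrays labelled GATA3, against 8.38, 8.46 and 8.66 in the GFP control arrays. The groups were separated by 2.62 on the log2 scale, more than the range within either group. The means were 5.56 ± 0.34 and 8.50 ± 0.14 (SD, n = 3 each), and the log2 change was -2.94 (SE 0.19, 95% interval -3.41 to -2.47, adjusted p = 0.000349). In bulk RNA, fewer cells with TNC transcript and less transcript per cell cannot be told apart. Called falls of at least this size were seen in 41 of the 10814 genes, or 0.379%, TNC included, and called rises of at least this size in 106 genes, or 0.980%.

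Replicates 1 and 3 of the arrays labelled GATA3 held exactly the same TNC value, and replicate 2 lay below it. Such exact ties are not rare in these values: GATA3 replicates 1 and 3 were tied in 693 tested probe sets (2.91%), and the 15 pairs of arrays were tied in 693 to 1014. Without replicate 3 the log2 change of TNC was -3.04, and leaving out any 1 array kept it between -3.04 and -2.74; over all alternatives its adjusted p was at most 0.00560. The 2 other TNC probe sets, 216005_at and 237169_at, read 2.16 to 2.17 on every array. They lay at the floor in the GFP control arrays as well, so they could not have shown a fall.

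THBS1 was the member read by most probe sets, and their changes differed in size. Probe set 235086_at read 7.76, 7.44 and 7.71 in the arrays labelled GATA3, against 5.29, 5.33 and 6.12 in the GFP control arrays, 4.17-fold higher (log2 change 2.06, SE 0.25, adjusted p = 0.00335). Probe set 239336_at read 11.30, 11.46 and 11.15 in the arrays labelled GATA3, against 10.31, 10.34 and 10.27 in the GFP control arrays, 2.00-fold higher (log2 change 1.00, SE 0.084, adjusted p = 0.000940). The third rise of about this size was that of 215775_at, with 8.83, 9.01 and 8.77 in the arrays labelled GATA3 and 7.86, 8.03 and 7.85 in the GFP control arrays, 1.94-fold (adjusted p = 0.00158). None of these 3 had overlapping groups. The 95% interval of the log2 change of 235086_at was 1.44 to 2.68, so that in size it met that of TNC (-3.41 to -2.47).

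The 4 remaining THBS1 probe sets carry the suffix _s_at, which marks probes shared between similar transcripts, and changed less. Probe set 201107_s_at read 11.15, 11.07 and 10.95 in the arrays labelled GATA3, against 10.43, 10.34 and 10.20 in the GFP control arrays, 1.66-fold higher (adjusted p = 0.00273). Probe set 201108_s_at was 1.54-fold higher (13.35 ± 0.047 in the arrays labelled GATA3 and 12.72 ± 0.12 in the GFP control arrays, SD, n = 3 each, adjusted p = 0.00234), and 201109_s_at 1.37-fold higher (13.61 ± 0.074 and 13.16 ± 0.12, adjusted p = 0.00836). The brightest probe set, 201110_s_at, read 13.47, 13.72 and 13.74 in the arrays labelled GATA3, against 13.20, 13.36 and 13.59 in the GFP control arrays. Here the groups overlapped, and the log2 change of 0.26 (95% interval -0.05 to 0.56) did not pass (adjusted p = 0.179).

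The 95% interval of the log2 change was 0.27 to 0.63 for 201109_s_at and 0.79 to 1.21 for 239336_at, so these 2 readings of the same gene gave intervals that did not meet. The 3 THBS1 probe sets that read at least 12.6 on every array had the 3 smallest changes, and the other 4 read at most 11.5. The part of signal level, of transcript variants and of probe position in these differences was not tested. With the mean of its 7 probe sets THBS1 had a log2 change of 0.87 (adjusted p = 0.000187), so the call for the gene depended on the probe set used. Without GATA3 replicate 3 the 7 changes were 0.21 to 2.02, and 201110_s_at alone did not pass.

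**Figure D2:**
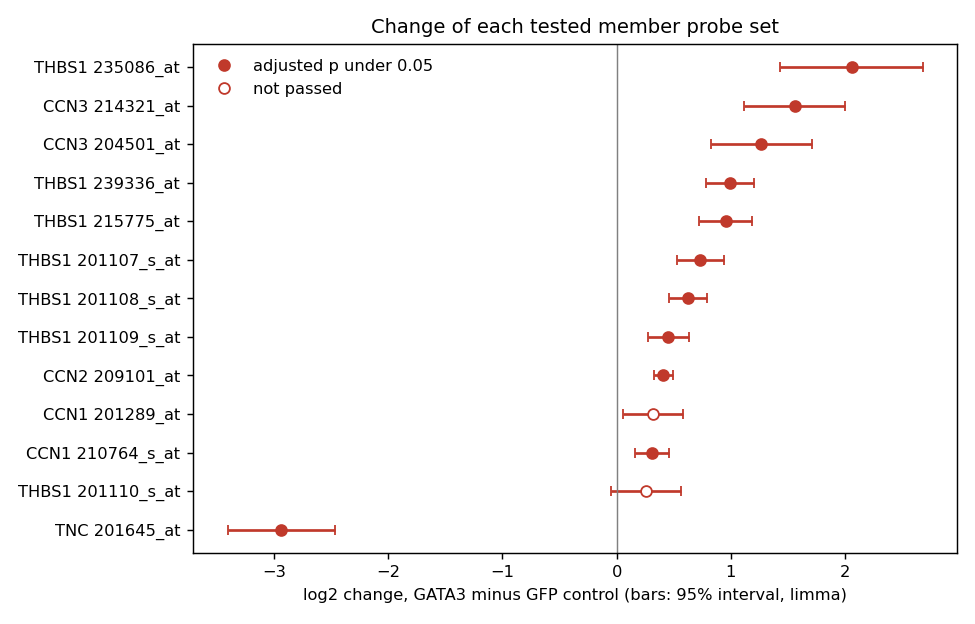
Log2 change (GATA3 minus GFP control, horizontal axis) of each tested member probe set with its 95% interval from limma; filled points passed the threshold and open ones did not. TNC stands alone on the left at -2.94, and the THBS1 probe sets spread from 0.26 to 2.06.

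THBS2, the nearest relative of THBS1, read 2.16, 2.16 and 2.17 in the arrays labelled GATA3, against 2.44, 2.24 and 2.18 in the GFP control arrays. All 6 values lay near the floor and were not tested. The probe set of THBS3, a thrombospondin of cartilage and bone, read 3.62 on every array. A value that repeats to the last digit on all arrays carries no measured difference, and no expression of THBS3 was shown.

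Transcripts of the integrin-binding CCN proteins were higher on the probe set used for each gene. CCN2, long known as connective tissue growth factor, read 13.78, 13.82 and 13.89 in the arrays labelled GATA3, against 13.45, 13.42 and 13.41 in the GFP control arrays. The change was small, 1.33-fold, but the spread within groups was smaller still (SD 0.052 in the arrays labelled GATA3 and 0.019 in the GFP control arrays, n = 3 each). The log2 change was 0.41 (SE 0.034, 95% interval 0.32 to 0.49, adjusted p = 0.000899). It was 0.38 without GATA3 replicate 3, and CCN2 passed under all 16 alternatives, with adjusted p-values up to 0.0131. Because CCN2 has 1 probe set, the alternatives with other probe set rules could not move its log2 change. CCN2 and CCN1 read at least 13.4 and 13.7 on every array, in or above the range of the brightest THBS1 probe sets. The part of signal level in the size of their changes was not tested.

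CCN1, an immediate early gene that promotes adhesion and migration, was read by a pair of probe sets. Their changes were nearly the same when all arrays were used. Probe set 210764_s_at read 14.20, 14.22 and 14.08 in the arrays labelled GATA3, against 13.95, 13.84 and 13.78 in the GFP control arrays (log2 change 0.31, SE 0.060, adjusted p = 0.0164). Probe set 201289_at read 14.08, 14.05 and 14.38 in the arrays labelled GATA3, against 13.74, 13.84 and 13.97 in the GFP control arrays (log2 change 0.32, SE 0.11), and did not pass (adjusted p = 0.0841). The groups did not overlap in either, but the gap between them was only 0.13 and 0.077.

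The call for CCN1 was fragile. It was lost when GATA3 replicate 1 (adjusted p = 0.0563), GATA3 replicate 2 (0.0605), GFP control replicate 2 (0.0678) or GFP control replicate 3 (0.0555) was left out, and with no filter on low values (0.0715). Without GATA3 replicate 3 the log2 change of 210764_s_at was 0.35 and passed (adjusted p = 0.0146). That of 201289_at was then 0.21 and did not pass (adjusted p = 0.0989). The near match of the pair therefore did not hold without that array.

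CCN3, a growth-restraining member of the same family first known as NOV, was near the detection level in the GFP control arrays and above it in the arrays labelled GATA3. Probe set 214321_at read 5.76, 5.73 and 5.28 in the arrays labelled GATA3, against 3.78, 4.22 and 4.09 in the GFP control arrays, a log2 change of 1.56 (SE 0.18, adjusted p = 0.00268). Probe set 204501_at read 4.76, 5.11 and 4.97 in the arrays labelled GATA3, against 3.33, 3.89 and 3.82 in the GFP control arrays. Its controls all lay under 4, so it was at least 1.93-fold higher (adjusted p = 0.00558). It passed the filter only through the arrays labelled GATA3, so that it had to differ, and its rise is no separate support.

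The 2 CCN3 probe sets differed little in their changes, and the 95% intervals, 1.12 to 2.00 and 0.82 to 1.71, overlapped widely. Without GATA3 replicate 3 the changes were 1.71 and 1.25. Under 1 alternative, a filter over 5 on at least 3 arrays, 214321_at was kept only through the arrays labelled GATA3. That setting is therefore no separate support for its rise. CCN3 passed under all 16 alternatives. The log2 change of 214321_at was 1.43 to 1.71 under the 14 of them that change the fit or leave out an array, and the mean of both probe sets, which includes 204501_at, gave 1.41.

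The collagen-binding and bone-associated members were not seen. SPARC, which binds collagen and is abundant in fibroblasts, read 2.16 to 2.21 on its 2 probe sets. SPP1, which encodes osteopontin, a ligand of integrins and CD44, read 2.16 on all arrays by either probe set. POSTN, which encodes periostin, a partner of tenascin C in the metastatic niche, read 2.16 to 2.17 on its 4 probe sets. At this floor a low level of these transcripts cannot be told from none.

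The pattern over the 6 arrays was set beside that of 10813 other genes, as a description. DGAT2, which makes triglycerides, STMN1, a microtubule-destabilising protein gene, and LOC374443 were most like TNC, with Pearson correlations of 0.999, 0.998 and 0.998. GMNN, an inhibitor of replication licensing, MFHAS1 and DNER, a Notch ligand of neurons, were most like CCN3 (0.997, 0.997 and 0.996). Since 2 groups of arrays dominate any such measure, 66 genes correlated with TNC and 35 with CCN3 at over 0.99.

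Each list below is set beside all 10814 tested genes, of which 14.8% were higher and 14.5% lower (median log2 change -0.02). Of 23 other genes of matricellular families, 22 had a probe set and 5 were tested, of which 2 were lower, none was higher and 3 did not pass. The 3 were SMOC1, DSPP and IBSP, and 0 were higher in limma at an unadjusted p under 0.05 as well. SMOC1 read 4.04 on every array, to the last digit, and so, like THBS3, carries no measured difference. The log2 changes of DSPP and IBSP were 0.18 and 0.48, and the median of the 4 genes whose values varied was -0.21 (0.00 with SMOC1). TGFBI, a relative of periostin, read 9.65 ± 0.15 in the arrays labelled GATA3 and 11.40 ± 0.013 in the GFP control arrays (SD, n = 3 each), 3.36-fold lower (adjusted p = 0.000109). FSTL1, a relative of SPARC, was 1.51-fold lower (adjusted p = 0.00193), but its second tested probe set, with a log2 change of -0.16, did not pass. The CCN relatives CCN4, CCN5 and CCN6, the thrombospondins THBS4 and COMP and the tenascins TNR and TNXB had no probe set bright enough to be tested.

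Receptors of these proteins went both ways. Of 25 receptor genes 18 were tested, of which 5 were higher, 2 were lower and 11 did not pass (median log2 change 0.13). Over all tested genes the shares were 14.8% higher and 14.5% lower. ITGA2, the collagen-binding integrin alpha 2, read 12.73 ± 0.11 in the arrays labelled GATA3 and 10.20 ± 0.18 in the GFP control arrays (SD, n = 3 each), 5.77-fold higher (adjusted p = 8.60e-05), and its other probe set was 5.82-fold higher. ITGA5, the fibronectin receptor subunit alpha 5, was 3.16-fold lower (7.32 ± 0.25 and 8.98 ± 0.066, adjusted p = 0.000862). CD47, the thrombospondin 1 receptor, was 1.60-fold lower (adjusted p = 0.00287), and lower on 4 of its 5 tested probe sets.

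ITGB8, a partner of alpha v in the activation of TGF-beta, was at least 2.05-fold higher (adjusted p = 0.00933), having passed the filter only through the arrays labelled GATA3, and did not pass with no filter on low values (0.0502) or with the replicate number as a block (0.0516). Having passed that way, ITGB8 had to read higher, and its place among the receptors called higher is no separate support. ITGAV, the alpha subunit of several integrins that bind CCN proteins and osteopontin, was 1.45-fold higher (adjusted p = 0.00812); it was named after its values had been seen. ITGB1, which pairs with many alpha subunits, and SDC4 were measured and did not pass, with log2 changes of -0.02 and 0.06. CD44, a receptor for osteopontin, did not pass on 11 of its 12 tested probe sets, that used for the gene included (log2 change -0.07). The exception was the dim probe set 1565868_at, which read 5.55, 5.07 and 4.04 in the arrays labelled GATA3, against 6.20, 6.87 and 6.93 in the GFP control arrays, 3.43-fold lower (log2 change -1.78, adjusted p = 0.0324). That call was lost under 6 of 14 alternatives, which included leaving out GATA3 replicate 2 (adjusted p = 0.0797) or GFP control replicate 1 (0.0569), 2 (0.112) or 3 (0.114). CD36, a thrombospondin receptor, and ITGA9 and ITGB3, subunits of receptors for tenascin C and osteopontin, had no tested probe set. All 6 of these genes were likewise chosen with their values known. Of the receptor genes, 3 were higher without GATA3 replicate 1, GATA3 replicate 2 or GFP control replicate 1, in place of 5.

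Genes reported as YAP, TEAD or serum response factor targets, the company of CCN1 and CCN2, did not share a direction. Of 28 tested, 6 were higher, 8 were lower and 14 did not pass (median log2 change 0.06), where 14.8% of all tested genes were higher and 14.5% lower. TAGLN, the actin-binding protein transgelin, was 2.38-fold higher (11.07 ± 0.029 in the arrays labelled GATA3 and 9.82 ± 0.062 in the GFP control arrays, SD, n = 3 each, adjusted p = 6.37e-05), although its dimmest tested probe set did not pass (log2 change 0.07). FHL2, a LIM-domain cofactor, was 2.24-fold higher (adjusted p = 0.000202). RBMS3, an RNA-binding protein gene, was 3.08-fold lower, and ASAP1, a regulator of focal adhesion turnover, 1.77-fold lower. ANKRD1 (log2 change 0.17) and AMOTL2 (-0.07), often used beside CCN1 and CCN2 as readouts of YAP, did not pass; these genes were chosen with their values known. The lower count was 5 without GATA3 replicate 1 or 2 or GFP control replicate 1 or 2, and 4 without GFP control replicate 3.

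TGF-beta response genes were as mixed, with 6 higher, 6 lower and 10 not passed of 22 tested (median log2 change 0.00). The shares over all tested genes were 14.8% higher and 14.5% lower. LTBP1, which holds latent TGF-beta in the matrix, was 4.41-fold lower (6.52 ± 0.063 in the arrays labelled GATA3 and 8.66 ± 0.17 in the GFP control arrays, SD, n = 3 each, adjusted p = 0.000128). BHLHE40 was 2.81-fold higher, the matrix-crosslinking transglutaminase gene TGM2 2.49-fold higher and CDKN1A, a cell-cycle inhibitor gene, 1.97-fold higher.

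Among proteases and inhibitors that act on matricellular proteins, 7 were higher, 3 were lower and 4 did not pass of 14 tested (median log2 change 0.19). Again, 14.8% of all tested genes were higher and 14.5% lower. MMP12 was at least 276-fold higher and the stromelysin gene MMP3 at least 7.39-fold higher, and either passed the filter only through the arrays labelled GATA3. Both therefore had to read higher, and their place among the 7 is no separate support. MMP1, interstitial collagenase, was 8.04-fold higher (adjusted p = 0.000287). MMP14, a membrane-anchored metalloproteinase gene, read 7.62 ± 0.40 in the arrays labelled GATA3 and 9.16 ± 0.33 in the GFP control arrays (SD, n = 3 each), 2.92-fold lower (adjusted p = 0.00966), and was lower on all 4 of its probe sets.

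**Figure D3:**
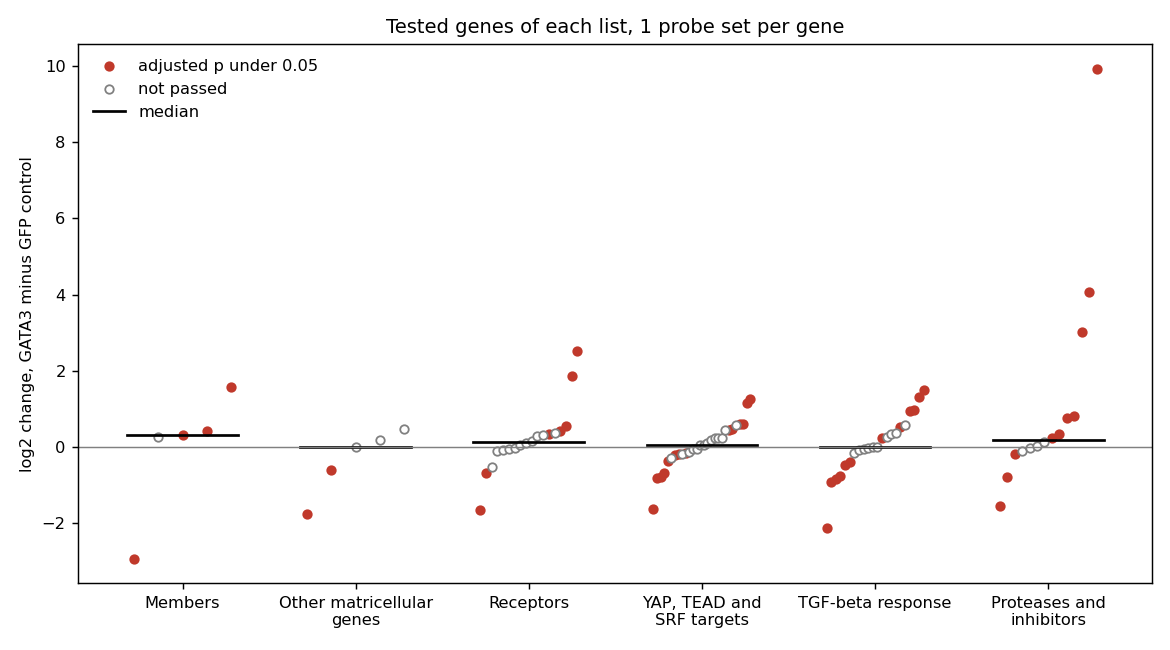
Log2 change (GATA3 minus GFP control, vertical axis) of every tested gene of the members and of the 5 other lists, 1 probe set per gene, in order of change within each list; red points passed the threshold, open points did not, and the black line is the median of the list. Medians lie between 0.00 (other matricellular genes, SMOC1 included) and 0.31, with points on either side of 0 in each list.

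**Figure D4:**
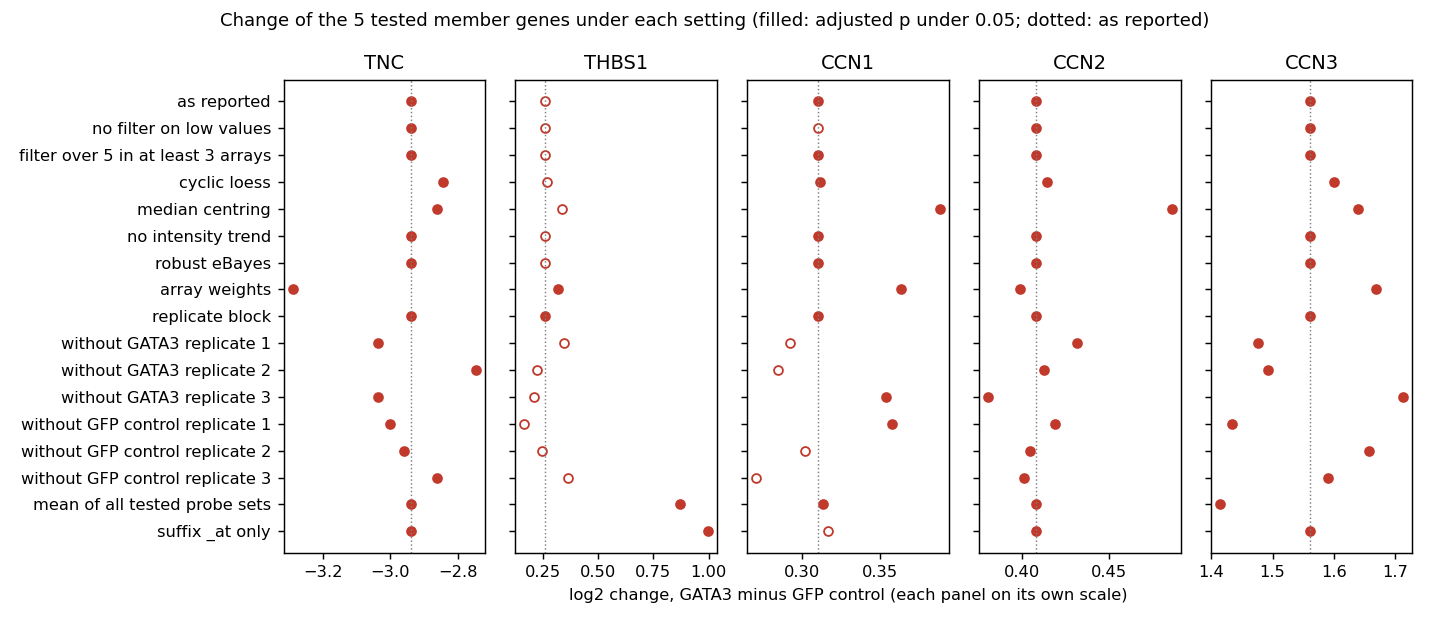
Log2 change (GATA3 minus GFP control) of the 5 tested member genes as reported and under 16 alternatives, each panel on its own scale; filled points passed the threshold and the dotted line is the value as reported. TNC, CCN2 and CCN3 passed throughout, CCN1 lost its call under 6 alternatives, and THBS1 gained one under 4.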

How the data were processed

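RNA (1 ug, with an integrity number over 9) was labelled with biotin and hybridised to 6 single-colour Affymetrix arrays, per the labels' protocols. The deposited log2 values come from GCRMA, as the submitters' processing notes say; its version is not given in the sources used here, and the log2 scale was read from the values, which reach down to a floor of 2.16. Of 54675 probe sets, 62 controls were left out, 41091 had 1 symbol in the platform annotation, 1801 several and 11721 none; 0 symbols needed an update.

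The values were used as deposited. Probe sets over 4 in at least 3 of 6 arrays (23785) were compared between groups taken from the labels with limma (version 3.58.1 in R 4.3.3; lmFit, eBayes with an intensity trend, no covariate), adjusted by Benjamini-Hochberg over all of them. For a group with no array over 4, the fold is a bound against 4. The calculation was tested on simulated data. Each gene took its tested probe set of highest mean. The rule for names took the members, GATA3, up to 4 genes of each other list (largest called changes) and the 3 genes most like TNC and most like CCN3. Any other gene named, in the marker, family, receptor and YAP lists, was chosen after its values were seen. Members and lists were chosen with earlier results of these data known. Alternatives were other filters, scalings, variance models, array weights, a replicate block, each array left out and other probe set rules. Deviations of same-numbered arrays from their group means correlated at -0.135, 0.159 and -0.109, and those of differently numbered arrays at -0.253 to 0.228. With means of 3 arrays, this check cannot decide whether replicate numbers pair the arrays. The number of arrays limits the precision.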

Additional observations from a re-analysis of the deposited data

How the results depend on the processing

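Over 16 alternatives TNC (log2 change -3.29 to -2.74), CCN2 (0.38 to 0.49) and CCN3 (1.41 to 1.71) kept their direction and their side of the threshold, as did GATA3 (-1.76 to -1.45) over 15. For CCN3 these include the filter over 5, which it met only through the arrays labelled GATA3. TNC and CCN2 had 1 tested probe set each, so other probe set rules could not move their log2 changes. CCN1 stayed positive (0.27 to 0.39) but missed the threshold in 6 alternatives, among them the plain suffix _at alone (adjusted p = 0.0841). THBS1 stayed positive (0.17 to 1.00) and passed with array weights, whose estimation stopped before converging (adjusted p = 0.0288), with the replicate block (0.0480), with the mean of its probe sets and with the suffix _at alone (0.000940). Member genes higher numbered 2 to 4 and lower 1. The replicate block also brought CCN1 201289_at past the threshold (0.0330) and left 2106 probe sets lower and 3 receptors higher. Whether the replicate numbers pair these arrays is not known. Median centring and cyclic loess moved the median change of all tested probe sets to 0.0281 and 0.00818, beside -0.0501 as reported.

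Of all tested probe sets 2698 were higher and 3329 lower, against 1796 to 3581 and 1801 to 3752 with 1 array left out, 5195 and 6642 with array weights, and 1767 lower with no filter. The alternatives for the other lists were chosen after seeing the data. With 1 array left out, receptors higher numbered 3 to 6 and YAP, TEAD and serum response factor targets lower 4 to 8. With no filter these were 2 and 4, and with median centring 5 targets were lower. Array weights gave 2 other matricellular genes higher, and means over probe sets 4 receptors lower. The suffix _at alone gave 1 TGF-beta response gene lower and 4 proteases higher, with fewer genes tested. TAGLN did not pass with that suffix alone (adjusted p = 0.662). The cause of the other shifts was not tested. Signal at the floor limits what can be said of the 5 dim members.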
